A study of Mus musculus with 12 samples.

Results

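The genes described here are 10 transcriptional regulators of the circadian clock: Bhlhe40 and Bhlhe41, Per1, Per2, Per3 and Cry1, Nr1d1 and Nr1d2, and Nfil3 and Dbp. They were chosen by name, and 9 of the 10 were measured by a probe set that the platform annotation gives to that gene alone, out of 17097 genes measured in this way. Nr1d1 had no such probe set and was not analysed here. RNA came from primary mouse embryonic fibroblasts (MEFs) of e14.5 C57Bl/6 x 129Sv (F1) embryos at passage 4, on 12 arrays in 4 groups of 3. The groups were CBP/p300 null (dKO) cells with 2,2'-dipyridyl (DP), dKO cells with ethanol, wild-type (WT) cells with DP, and WT cells with ethanol. DP was given at 100 µM, and both treatments lasted 3 h in normoxia. The dKO cells were compound homozygous for conditional knockouts of CBP and p300, related lysine acetyltransferases that many transcription factors use as coactivators. Cells of all 4 groups, WT included, received Cre-expressing adenovirus at a multiplicity of infection of 100 and were grown in 3% oxygen until 24 h before treatment. The sources used here do not give the share of cells that lost both genes, the time of day or any synchronisation of the clock. Lines 1, 5 and 6 were dKO and lines 3, 4 and 5 were WT. Each line gave 1 array per treatment, and a shared number in the 2 genotypes does not mark a shared embryo.

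In the mammalian clock the activators CLOCK and BMAL1 (the product of Arntl) bind E-boxes and switch on the Per and Cry genes, whose products then repress the activators. REV-ERB proteins, made from Nr1d1 and Nr1d2, repress Arntl through ROR elements that ROR proteins activate. DBP activates and NFIL3 represses through D-boxes. The bHLH repressors made from Bhlhe40 and Bhlhe41 (DEC1 and DEC2) compete at E-boxes, and Bhlhe40 is also known as a target of hypoxia-inducible factor (HIF), the factor that DP stabilises by taking iron from the hydroxylases that mark it for destruction. Per1 is also known as an early gene that cyclic AMP induces.

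Promoters are shown for Per1 and Nfil3, the genes among the 10 with a call below that the RefSeq promoter table (GRCm38.p6) holds. Cry1, whose level did not pass any test, is shown too. So is Ciart, a clock repressor gene outside the 10 with the largest change with DP among the further clock genes. Rora, a further clock gene that also rose with DP, is not printed. The table held 8 of the 10 genes and lacked Bhlhe40 and Per2. Each sequence runs 5′ to 3′ on the strand of the gene, from 250 bases before the start to 50 bases after it. Capitals mark matches on either strand to the E-box CACGTG, the HIF core ACGTG or GCGTG, the cyclic AMP response element TGACGTCA or its short form TGACG, the D-box TTACGTAA or TTATGTAA, and the ROR core AGGTCA.
Per1, upstream start, chr11:69098699-69098998, plus strand: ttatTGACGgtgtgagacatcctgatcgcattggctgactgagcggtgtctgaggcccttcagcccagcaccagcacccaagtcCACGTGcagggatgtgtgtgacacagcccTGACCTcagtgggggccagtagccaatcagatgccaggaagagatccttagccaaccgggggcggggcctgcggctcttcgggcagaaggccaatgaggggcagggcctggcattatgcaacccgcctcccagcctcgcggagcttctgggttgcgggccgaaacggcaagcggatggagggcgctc
Per1, downstream start, chr11:69099902-69100201, plus strand: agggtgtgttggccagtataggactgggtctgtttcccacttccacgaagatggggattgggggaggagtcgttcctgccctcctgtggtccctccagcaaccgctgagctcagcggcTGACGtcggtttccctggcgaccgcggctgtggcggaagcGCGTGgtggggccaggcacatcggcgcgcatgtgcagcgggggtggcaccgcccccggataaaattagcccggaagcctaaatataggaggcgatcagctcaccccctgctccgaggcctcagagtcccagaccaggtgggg
Nfil3, chr13:52980990-52981289, minus strand: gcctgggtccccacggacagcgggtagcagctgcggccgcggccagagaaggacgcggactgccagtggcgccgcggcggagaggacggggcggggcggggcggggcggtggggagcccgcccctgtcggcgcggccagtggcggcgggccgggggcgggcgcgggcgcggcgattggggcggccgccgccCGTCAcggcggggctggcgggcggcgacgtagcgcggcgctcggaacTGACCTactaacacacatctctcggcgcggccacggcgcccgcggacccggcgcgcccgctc
Cry1, chr10:85185005-85185304, minus strand: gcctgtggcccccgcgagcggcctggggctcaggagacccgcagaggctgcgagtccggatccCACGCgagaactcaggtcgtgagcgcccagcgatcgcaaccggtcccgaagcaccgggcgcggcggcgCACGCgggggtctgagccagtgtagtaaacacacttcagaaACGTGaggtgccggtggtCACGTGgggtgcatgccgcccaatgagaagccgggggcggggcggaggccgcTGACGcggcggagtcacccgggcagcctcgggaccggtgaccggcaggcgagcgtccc
Ciart, chr3:95882179-95882478, minus strand: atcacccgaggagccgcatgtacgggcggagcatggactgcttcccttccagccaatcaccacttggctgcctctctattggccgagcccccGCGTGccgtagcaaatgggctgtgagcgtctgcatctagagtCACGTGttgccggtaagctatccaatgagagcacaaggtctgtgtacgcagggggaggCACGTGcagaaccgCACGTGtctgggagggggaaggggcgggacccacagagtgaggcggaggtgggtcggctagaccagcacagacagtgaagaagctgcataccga

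The E-box contains the HIF core ACGTG on both strands, so that 1 E-box counts as 2 HIF cores. Per1 has 1 E-box at -166 from its upstream start and 1 short cyclic AMP element before each start. The 2 HIF cores of its upstream window are the 2 strands of its E-box, and that window also holds 1 ROR core. Its downstream window holds 1 HIF core. Nfil3 has 1 short cyclic AMP element at -59, 1 ROR core and no E-box or HIF core in this window. Cry1 has 1 E-box at -60, 5 HIF cores with those inside the E-box counted, and 1 short cyclic AMP element at -8. Ciart has 3 E-boxes, at -116, -58 and -44, and 7 HIF cores with those inside the E-boxes counted. The window of Per3, not printed, holds 2 D-boxes of the form TTATGTAA at -205 and -158. That of Rora, a further clock gene that rose with DP, is not printed either and holds 2 HIF cores and no E-box. Of 32851 promoters of this length, 7.15% hold the E-box, 43.8% a HIF core, 1.79% the full and 20.8% the short cyclic AMP element, 1.06% the D-box and 16.3% the ROR core. These matches describe letters and not binding.

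Values are log2 probe set summaries, and a change is a difference of group means on the log2 scale with its limma SE. Levels of different probe sets are not compared with each other. Array medians lay between 3.87 and 3.98, and a signal is called near blank here at or below 3.28 to 3.54, which 95% of the 17 blank probe sets of an array did not exceed. Crebbp, the gene for CBP, lay between 7.02 and 7.69 on dKO arrays, against 8.07 to 8.54 on WT arrays. Whether its probes fall in the deleted region is not known here, so this level checks the labels only in part. All 10 fibroblast markers were measured. Their summed signal was 13.71 to 14.11 log2 in dKO and 15.21 to 15.30 in WT cells, with a Col1a2 mean near blank in dKO cells (3.42 with DP and 3.46 with ethanol). The 6 endothelial markers summed to between 5.74 and 5.98 in dKO and between 5.91 and 6.12 in WT cells. The 4 neural markers summed to between 5.64 and 6.19 in dKO and between 7.48 and 8.17 in WT, and the 5 epithelial markers to between 8.03 and 8.28 in dKO DP, 7.11 and 7.40 in dKO ethanol, 9.37 and 9.61 in WT DP and 8.43 and 8.58 in WT ethanol. The 4 skeletal muscle markers summed to between 6.73 and 7.77 in dKO and between 8.11 and 8.78 in WT. The 6 macrophage markers, at 7.77 to 8.23 in dKO and 7.71 to 9.32 in WT, and the 2 measured of 4 erythroid markers, at 4.42 to 6.38 in dKO and 4.58 to 7.16 in WT, overlapped between genotypes. Of single markers, Myod1, Ptprc, Pecam1, Tek, Tie1, Sox2 and Cdh1 were near blank in all groups, and Cdh5 in all but WT DP. Other members of these lists were higher. The highest mean in WT ethanol was 8.06 for macrophage, 8.39 for skeletal muscle, 7.75 for neural, 7.23 for epithelial and 4.02 for endothelial markers. Whether such cells were present was not tested. Xist, the RNA of the inactive X chromosome, was at 3.94 to 5.32 on dKO and 10.28 to 10.75 on WT arrays, so genotype and the sex of the embryos cannot be told apart. As a measure of RNA quality, the 3' signal of beta-actin exceeded its 5' signal by 0.48 to 0.60 in dKO DP, 0.40 to 0.45 in dKO ethanol, 0.28 to 0.38 in WT DP and 0.23 to 0.25 in WT ethanol. For Gapdh the same measure was 0.10 to 0.19 in dKO DP and 0.19 to 0.21 in dKO ethanol. In WT cells it was 0.04 to 0.17 with DP and -0.03 to 0.15 with ethanol, so that the genotypes overlapped under DP. The part of these measures in the results below was not tested.

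The ethanol arrays of dKO line 1 and WT line 5 stood apart from the others of their groups. Their deviations from their group mates ran together, with a correlation of 0.84 across 8917 genes, which are not independent replicates. Of the 9 measured genes, 5 (Bhlhe40, Nfil3, Per1, Cry1 and Dbp) were highest of their ethanol group on both arrays, while Nr1d2 and Per2 were lowest on both. Nr1d2 lay 1.02 below the mean of its group mates on the dKO array and 0.76 below on the WT array. Per1 lay 0.40 and 0.41 above, and Nfil3 0.53 and 0.37 above. Values with and without these 2 arrays are given below wherever they change a call.

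Bhlhe40, the E-box repressor gene, had the largest change with DP of the 9 in both genotypes and was lower in dKO cells under both treatments. With DP its values were 9.82, 9.71 and 9.72 in dKO lines 1, 5 and 6, against 7.69, 7.21 and 7.33 with ethanol. In WT lines 3, 4 and 5 they were 10.97, 10.97 and 10.95 with DP, against 9.06, 9.15 and 9.22 with ethanol. None of the 4 groups overlapped, and the order was WT DP, dKO DP, WT ethanol and dKO ethanol from high to low. Bhlhe40 rose with DP by 2.34 ± 0.12 in dKO (5.07-fold, limma adjusted p = 8.75e-08) and by 1.82 ± 0.12 in WT cells (3.53-fold, adjusted p = 5.24e-07). Line by line the rise was between 2.13 and 2.50 in dKO and between 1.73 and 1.90 in WT. It was lower in dKO than in WT by -1.73 ± 0.12 in ethanol (adjusted p = 2.79e-07) and by -1.21 ± 0.12 under DP (adjusted p = 4.19e-06). In such cultures fewer cells that express a gene and less RNA of it per cell cannot be told apart.

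The rise of Bhlhe40 in dKO exceeded that in WT by 0.53 ± 0.16, with a 95% interval of 0.17 to 0.88, and this difference did not pass over all genes (adjusted p = 0.41, unadjusted p = 0.00703). Without the 2 ethanol arrays that stood apart it was 0.63 ± 0.12 and passed (adjusted p = 0.0407), and it also passed without the dKO ethanol array of line 1 alone (0.67, adjusted p = 0.0433). On the linear scale the order was the other way round: the signal gained with DP was 685 to 700 units in dKO lines and 1386 to 1465 units in WT lines. The proportional rise was thus higher and the added signal lower in every dKO line than in any WT line.

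Bhlhe41, which encodes the related repressor DEC2, lay at or just above the level of the blank probe sets. It was between 3.24 and 3.50 in dKO DP, 3.29 and 3.47 in dKO ethanol, 3.44 and 3.53 in WT DP and 3.04 and 3.32 in WT ethanol. Its changes with DP were -0.04 ± 0.11 in dKO and 0.27 ± 0.11 in WT (adjusted p = 0.906 and 0.235). A second probe set averaged 3.33 over all arrays, against 3.36 for the one used. The WT DP values were above the blank level of their own arrays and did not overlap WT ethanol, while the group means of dKO DP, dKO ethanol and WT ethanol were at or under it. The difference between dKO and WT in ethanol was 0.16 ± 0.11 (adjusted p = 0.294) and passed with array weights (0.28, adjusted p = 0.0228). The second probe set did not follow these values, with a DP change in WT of -0.01 ± 0.14 (adjusted p = 0.982). Its WT values overlapped, at 3.28 to 3.58 with DP and 3.35 to 3.45 with ethanol. In ethanol it differed between dKO and WT by -0.14 ± 0.14 (adjusted p = 0.502).

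**Figure D1:**
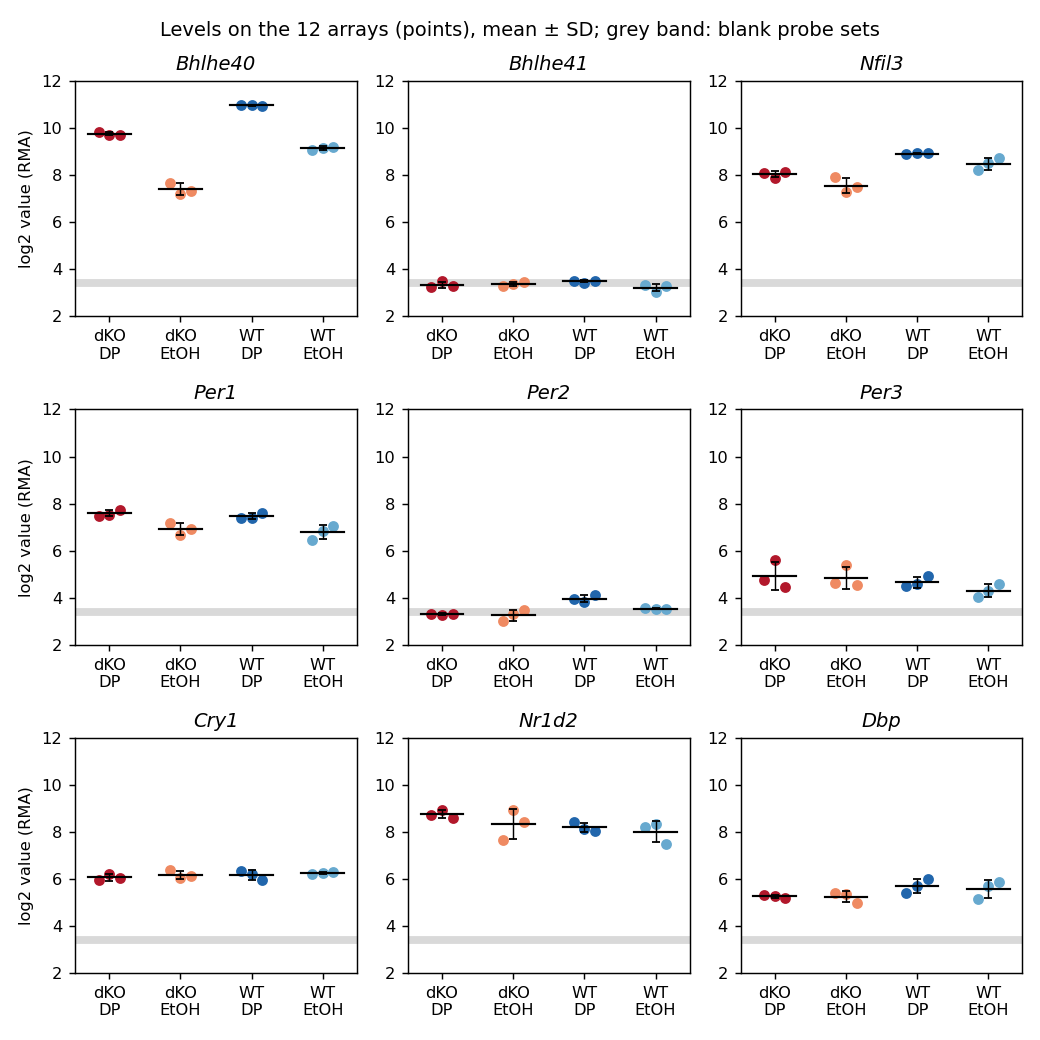
Log2 values of the 9 measured genes on the 12 arrays, with points for arrays, black lines for the mean ± SD of 3 arrays and a grey band for the blank level of 3.28 to 3.54. Bhlhe40 separates all 4 groups, Nfil3 separates the genotypes, Per1 is higher with DP in both, and Bhlhe41 and most Per2 values lie on or close to the band.

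Nfil3, the gene of the D-box repressor, was lower in dKO cells under both treatments. Its values with DP were 8.11, 7.89 and 8.14 in dKO lines 1, 5 and 6, against 8.90, 8.93 and 8.94 in WT lines 3, 4 and 5. With ethanol they were 7.92, 7.29 and 7.48 in dKO and 8.22, 8.51 and 8.73 in WT. The genotypes did not overlap in either treatment. The difference was -0.93 ± 0.16 in ethanol (0.53 of the WT signal, adjusted p = 0.000537) and -0.88 ± 0.16 under DP (0.55 of the WT signal, adjusted p = 0.000824). Neither passed with a fold minimum of 1.5 (adjusted p = 0.240 and 0.362). The response of Nfil3 to DP was positive in all 6 lines but did not pass, at 0.49 ± 0.16 in dKO (adjusted p = 0.202) and 0.43 ± 0.16 in WT (adjusted p = 0.197). Without the 2 ethanol arrays that stood apart it passed in both, at 0.66 ± 0.11 in dKO (adjusted p = 0.0124) and 0.56 ± 0.11 in WT (adjusted p = 0.0136), and in dKO also without the ethanol array of line 1 alone (adjusted p = 0.0473). The difference between these responses was 0.05, with a 95% interval of -0.44 to 0.54. With array weights the response of Nfil3 passed in both genotypes, at 0.57 in dKO (adjusted p = 0.00399) and 0.50 in WT (adjusted p = 0.0134).

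Dbp, the gene of the D-box activator, did not pass in any comparison. It lay between 5.20 and 5.31 in dKO DP, 4.99 and 5.40 in dKO ethanol, 5.41 and 6.03 in WT DP and 5.17 and 5.88 in WT ethanol. All dKO values were under the WT values with DP, where the difference was -0.44 ± 0.19 (adjusted p = 0.0953), and the groups overlapped in ethanol (-0.32 ± 0.19, adjusted p = 0.235). After cyclic loess the difference under DP passed (-0.52, adjusted p = 0.0417), and in a fit of the DP arrays alone it did so at the same size (adjusted p = 0.0381). It also passed under DP without the WT DP array of line 3 (-0.59, adjusted p = 0.0432), and in ethanol without the WT ethanol array of line 3 (-0.53, adjusted p = 0.0421). With array weights it passed in ethanol (-0.46, adjusted p = 0.0338). Its changes with DP were 0.01 ± 0.19 in dKO and 0.13 ± 0.19 in WT, with 95% intervals of -0.40 to 0.43 and -0.29 to 0.55.

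Per1, an E-box target and repressor of the activators, was the only period gene whose change with DP passed, and it did so in WT cells. Its values with DP were 7.49, 7.53 and 7.73 in dKO lines 1, 5 and 6, against 7.19, 6.68 and 6.91 with ethanol. In WT lines 3, 4 and 5 they were 7.40, 7.41 and 7.62 with DP, against 6.46, 6.85 and 7.06 with ethanol. DP and ethanol did not overlap within either genotype, whereas the genotypes overlapped in both treatments. The rise in WT cells was 0.69 ± 0.16 (1.61-fold, adjusted p = 0.0273). It did not pass with a fold minimum of 1.5, nor with median centring of the arrays (adjusted p = 0.0656). The call also ended without any 1 of the 3 WT DP arrays or the ethanol array of line 3 or 4 (adjusted p between 0.0633 and 0.131). In dKO the difference was 0.66 ± 0.16 (1.58-fold), and did not pass (adjusted p = 0.0721). Without the 2 ethanol arrays that stood apart it passed in both genotypes, at 0.79 ± 0.14 in dKO (adjusted p = 0.0134) and 0.82 ± 0.14 in WT (adjusted p = 0.00431), and in dKO also after cyclic loess (adjusted p = 0.0246) and without the ethanol array of line 1 (adjusted p = 0.0389). With array weights the difference in dKO was 0.67 and passed (adjusted p = 0.00262).

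No effect of genotype on Per1 was detected. The difference between dKO and WT was 0.13 in ethanol, with a 95% interval of -0.22 to 0.48, and 0.11 under DP, with an interval of -0.24 to 0.46. After cyclic loess both took the opposite sign, at -0.08 and -0.07. The DP responses differed by -0.03, with an interval of -0.52 to 0.47.

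Per2, whose product also represses the activators, was close to the blank level. It lay at 3.32, 3.27 and 3.33 in dKO DP, against 3.93, 3.82 and 4.13 in WT DP. With ethanol it was at 3.01, 3.30 and 3.47 in dKO and 3.56, 3.53 and 3.52 in WT. The WT values were above the dKO values in both treatments, and the difference passed under DP, at -0.66 ± 0.12 (adjusted p = 0.000753), where the dKO values were within the blank range, which limits the size that can be measured. The call under DP ended with a fold minimum of 1.5. In ethanol the difference was -0.27 ± 0.12 (adjusted p = 0.101), and passed without the dKO ethanol array of line 6 (-0.38, adjusted p = 0.0349). The DP change was 0.04 ± 0.12 in dKO and 0.43 ± 0.12 in WT (adjusted p = 0.894 and 0.0635). The WT value passed without the 2 ethanol arrays that stood apart (0.42, adjusted p = 0.0348) and with array weights (0.39, adjusted p = 0.0292). A second Per2 probe set, at a mean of 3.17 and so near blank, gave -0.28 for dKO against WT under DP (adjusted p = 0.0509). Its DP change in WT was 0.02 ± 0.10 (adjusted p = 0.964).

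Per3 and Cry1, genes of 2 further repressors, did not pass in any comparison. Per3 lay between 4.47 and 5.61 in dKO DP, 4.54 and 5.40 in dKO ethanol, 4.49 and 4.94 in WT DP and 4.02 and 4.60 in WT ethanol. Its highest value in each treatment came from dKO line 5, at 5.61 and 5.40, and without the DP array of that line the difference under DP was -0.05 in place of 0.28. The 4 other probe sets of Per3 averaged 4.15, 3.17, 3.16 and 2.91, 3 of them near blank, and none passed. Cry1 stayed between 5.97 and 6.24 in dKO DP, 6.03 and 6.38 in dKO ethanol, 5.97 and 6.37 in WT DP and 6.24 and 6.30 in WT ethanol. Its DP changes were -0.11 in dKO and -0.08 in WT, with 95% intervals of -0.38 to 0.16 and -0.35 to 0.19.

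Nr1d2, the gene of REV-ERB beta, was higher on average in dKO cells but passed only under some settings. Its values were 8.72, 8.96 and 8.61 in dKO DP, against 8.43, 8.13 and 8.06 in WT DP, with no overlap. With ethanol they were 7.67, 8.95 and 8.42 in dKO lines 1, 5 and 6 and 8.20, 8.33 and 7.51 in WT lines 3, 4 and 5, where the groups overlapped through the array of dKO line 1. The difference was 0.56 ± 0.28 under DP (adjusted p = 0.152) and 0.33 ± 0.28 in ethanol (adjusted p = 0.414). Under DP it passed in a fit of the DP arrays alone (adjusted p = 0.00767) and without the 2 ethanol arrays that stood apart (adjusted p = 0.0109), both at 0.56 since the DP arrays are the same. Under DP it also passed with array weights (0.56, adjusted p = 0.0156), and in ethanol without the dKO array of line 1 (0.67, adjusted p = 0.0397). The difference of Nr1d2 between DP and ethanol was 0.42 ± 0.28 in dKO and 0.19 ± 0.28 in WT, neither past the test, and without the 2 arrays 0.08 and -0.06. A second probe set averaged 3.31, near blank.

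Across the 9 measured genes, 1 rose and none fell with DP in dKO, where 1.01% of all genes rose and 0.491% fell. In WT cells 2 rose and none fell, against 3.05% and 1.67% of all genes. The median change of the 9 was 0.09 in dKO and 0.36 in WT, beside -0.05 and -0.03 for all genes. Between genotypes none of the 9 was higher and 2 were lower in dKO with ethanol, against 19.5% and 14.1% of all genes. Under DP none was higher and 3 were lower, against 18.5% and 16.9%. The DP responses of none of the 9 differed between genotypes, against 0.0468% of all genes with a higher and 0.515% with a lower response in dKO. Without adjustment, limma put 2 of the 9 and 1012 of all genes under 0.05, and the 2 were Bhlhe40 (0.53) and Per2 (-0.39, adjusted p = 0.792).

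**Figure D2:**
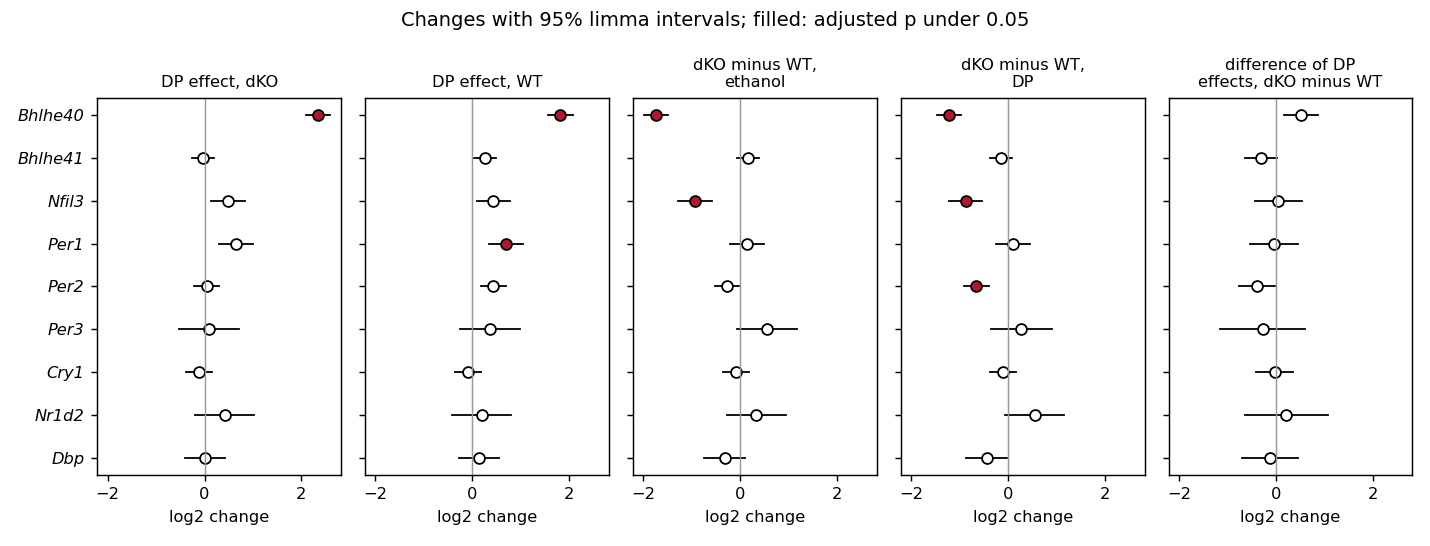
Change of each of the 9 genes on the log2 scale in the 5 comparisons, with 95% limma intervals and filled points for an adjusted p under 0.05. Bhlhe40 is filled in 4 panels, Nfil3 in both genotype panels, Per1 in the WT DP panel and Per2 in the genotype panel under DP. No point is filled in the panel of the difference.

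The 3 genes with the widest range of group means were Bhlhe40 (3.55), Nfil3 (1.36) and Per1 (0.79). For each, the 4 genes were found whose values over the 12 arrays, centred on their own mean, had the smallest root mean square difference from it. For Bhlhe40 these were Vegfa (0.27), which encodes an angiogenic growth factor, Slc16a3 (0.30), a lactate exporter gene, Ddit4 (0.36), an inhibitor of mTOR signalling, and Hk2 (0.41), a hexokinase gene, where all genes had a median difference of 1.30. All 4 had their group means in the same order as Bhlhe40, with the highest mean in WT DP and the lowest in dKO ethanol. The 4 were picked for closeness to Bhlhe40 on these same arrays, so the shared order follows largely from the choice. For Nfil3 they were Dusp10 (0.18), Fam217b (0.19), Eif4ebp1 (0.19) and Impdh1 (0.20), where the median was 0.56. For Per1 they were Slc37a4 (0.13), Ppme1 (0.14), Acvr1b (0.15) and Polr2d (0.16), where the median was 0.45.

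**Figure D3:**
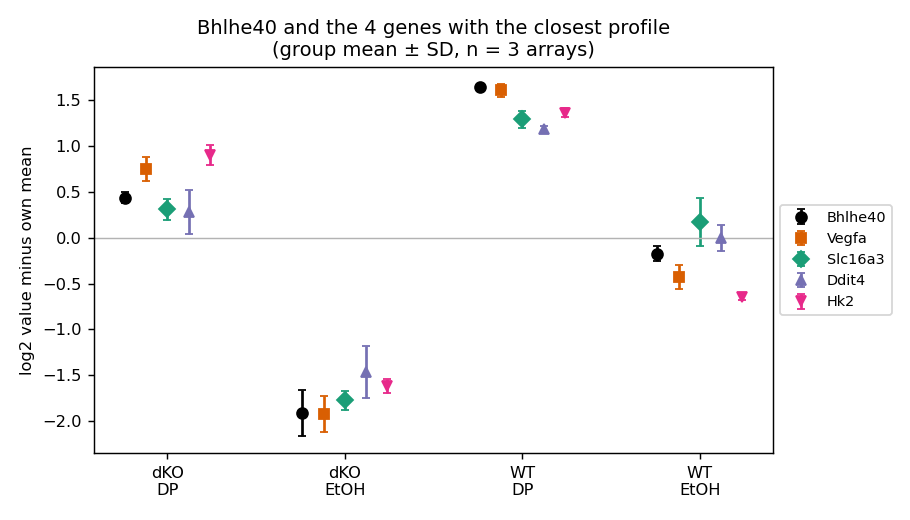
Group means ± SD (n = 3 arrays) of Bhlhe40 and its 4 closest genes on the log2 scale, each with the mean of its 4 group means subtracted. The 5 genes are lowest in dKO ethanol and highest in WT DP, which follows largely from how the 4 were picked.

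Of 27 further clock genes, 22 were measured. With DP 2 rose and none fell in dKO, and 3 rose and 3 fell in WT, and the median change was -0.03 in dKO and -0.02 in WT. Of all genes 1.01% rose and 0.491% fell in dKO, and 3.05% rose and 1.67% fell in WT. Ciart, whose product CHRONO represses CLOCK and BMAL1, was at 6.72, 6.86 and 7.13 from low to high in dKO DP, against 4.93, 5.14 and 5.29 in dKO ethanol. In WT cells it was at 7.07, 7.54 and 7.66 with DP, against 4.58, 4.71 and 5.09 with ethanol. It rose by 1.78 ± 0.18 in dKO (adjusted p = 8.79e-05) and by 2.63 ± 0.18 in WT (adjusted p = 9.90e-07), with no overlap between treatments. Rora, the gene of a ROR activator of Arntl, was at 8.15 to 8.24 in dKO DP, against 5.57 to 6.98 in dKO ethanol. It was at 7.92 to 7.94 in WT DP, against 5.58 to 6.12 in WT ethanol. Rora rose by 1.78 ± 0.27 in dKO (adjusted p = 0.00371, and 0.0515 in a fit of the dKO arrays alone) and in WT with a 95% interval of 1.41 to 2.59 (adjusted p = 0.000591).

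In WT cells Cry2, the paralog of Cry1, rose by 0.68 ± 0.15 (adjusted p = 0.0172). In dKO the difference was 0.01 ± 0.15. The call of Cry2 in WT ended without the DP array of line 4 or 5 or the ethanol array of line 3 or 4 (adjusted p between 0.0517 and 0.0916). Csnk1d, the gene of a kinase that marks PER proteins for destruction, fell by 0.80 ± 0.11 in WT (adjusted p = 0.000469) and differed by -0.31 ± 0.11 in dKO (adjusted p = 0.218). Over the mean of all its probe sets the WT value was -0.21 (adjusted p = 0.376), so its probe sets disagree. No response of the 22 differed between genotypes past the test. Those of Ciart and Cry2 differed most, by -0.85 ± 0.25 and -0.67 ± 0.21 (adjusted p = 0.364 and 0.417).

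Between genotypes 4 of the 22 were higher and 2 lower in dKO with ethanol, and 5 were higher and 4 lower under DP. Of all genes 19.5% were higher and 14.1% lower in ethanol, and 18.5% higher and 16.9% lower under DP, and nothing is read from the counts of the 22. Sirt1, the gene of a deacetylase that binds CLOCK, was higher in dKO by 1.83 ± 0.35 in ethanol and 2.39 ± 0.35 under DP (adjusted p = 0.00106 and 0.000135). Usp2, a clock-controlled deubiquitinase gene, was lower by -0.86 ± 0.15 and -0.87 ± 0.15 (adjusted p = 0.000516 and 0.000465). Tef, which encodes a D-box activator related to DBP, was higher by 0.69 ± 0.12 in ethanol (adjusted p = 0.000565), and Btrc, a ubiquitin ligase gene, by 0.62 ± 0.20 (adjusted p = 0.0275). The call of Btrc ended without the 2 ethanol arrays that stood apart (adjusted p = 0.0627), without the ethanol array of dKO line 1 or of WT line 3 or 4 (0.0697 to 0.0975), after cyclic loess (0.0703) and with median centring (0.0508). Under DP Clock was higher by 1.27 ± 0.38 (adjusted p = 0.0187) and Csnk1d by 1.06 ± 0.11 (adjusted p = 6.51e-06). Over the mean of its probe sets Csnk1d differed by 0.19 (adjusted p = 0.178). The call of Clock ended after cyclic loess (0.0506) and without the DP array of dKO line 1 or 6 or of WT line 4 or 5 (0.0527 to 0.0754). Arntl, named after its values were seen because its product is the partner of CLOCK, was lower in dKO by -0.58 ± 0.10 in ethanol and -0.59 ± 0.10 under DP (adjusted p = 0.000414 and 0.000341). With DP it differed from ethanol by -0.004 ± 0.10 in dKO and 0.01 ± 0.10 in WT.

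**Figure D4:**
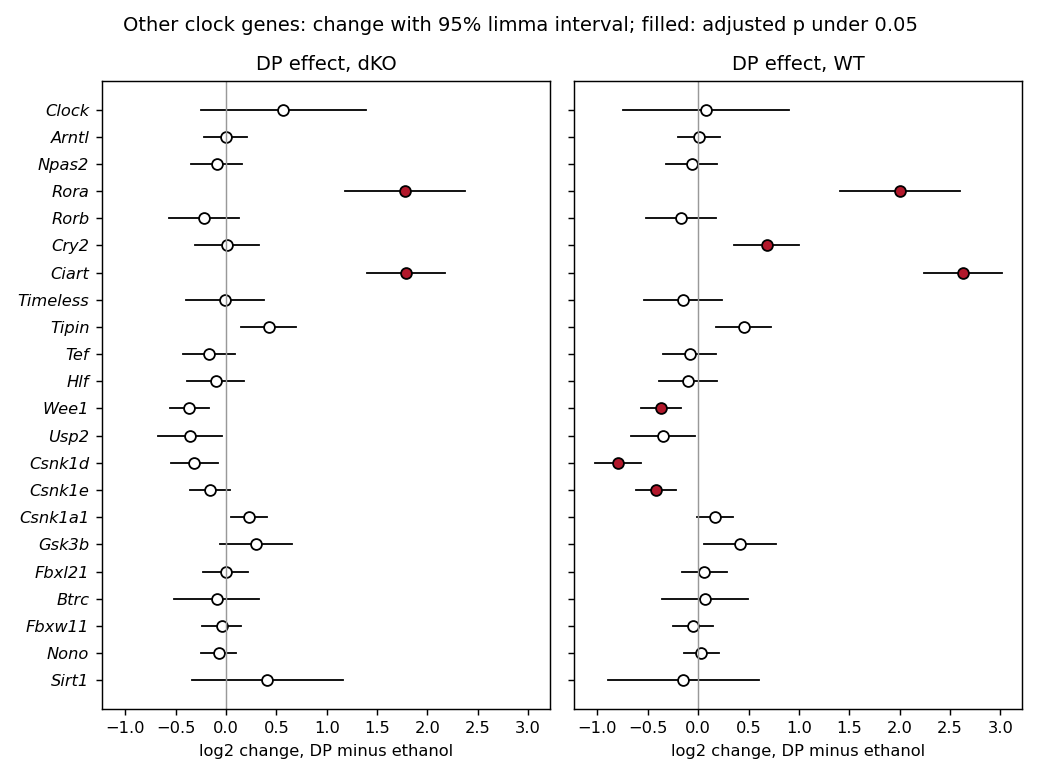
DP-minus-ethanol change of the 22 further clock genes on the log2 scale in dKO (left) and WT cells (right), with 95% limma intervals and filled points for an adjusted p under 0.05. Ciart and Rora lie far to the right in both panels, and the remaining genes lie within about 1 log2 unit of 0.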

How the data were processed

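Total RNA of 12 MEF cultures was measured on Affymetrix arrays. The submitters' processing notes name RMA and Affymetrix Expression Console 1.1, and the deposited values are log2 summaries of each probe set. RMA includes quantile normalization between arrays, so a shift shared by most genes is not seen. Of 45141 probe sets, 104 were controls, 28898 had 1 gene symbol, 551 had several and 15588 none. Those with several or none were not used. For 28689 of the 28898 the symbol was taken through the gene identifier, whether or not it changed. Each of 17097 genes was read from its brightest probe set over the 12 arrays, and others served as a check.

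Tests used limma 3.58.1 in R 4.3.3 (lmFit and eBayes) with 1 mean per group over all 12 arrays, and Benjamini-Hochberg adjustment over all 17097 genes of a comparison. Values after ± are moderated SEs, with n = 3 arrays per group, and intervals are from the same fit. A gene was called at an adjusted p under 0.05. The fit was tested on simulated data. Figures used Python 3.11.15 with matplotlib 3.10.9. The number of arrays limits the precision.

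The members, the list of further clock genes, the tests and the alternatives were chosen with earlier results of these data known. All members were named. Of the further genes, up to 4 called per comparison by size of change were named, or the 2 of largest change. Alternatives changed the scaling (cyclic loess, median centring), the fit (MEF line as a block, array weights, a trend with intensity, robust eBayes, a fold minimum of 1.5), the probe sets and filter on dim genes, and the arrays used.

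The same line of a genotype received both treatments, per the labels, so line numbers pair arrays within a genotype. Across genes, the correlation between a line's DP and ethanol deviations from the group means was 0.04 for dKO line 1, 0.32 for line 5 and 0.36 for line 6. For WT line 3 it was 0.42, for line 4 it was 0.06 and for line 5 it was 0.33.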

Additional observations from a re-analysis of the deposited data

How the results depend on the processing

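Of 1259 values of single genes under alternatives, 1123 kept their direction and their side of the threshold, 25 passed only under the alternative, 67 no longer passed and 44 took the opposite sign, of which 1, Csnk1d in dKO against WT in ethanol, had passed before the sign turned. The 4 calls of Bhlhe40 between treatments and genotypes held under every alternative run. Why values moved under an alternative was not tested, except that a fold minimum asks for more by construction and that leaving out arrays leaves fewer samples. The 3 arrays per group limit the precision, and Bhlhe41, Per2 in dKO and most further probe sets lay at or near blank, which limits the decrease that can be measured.

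With the MEF line as a replicate block, 267 genes were called for DP in dKO, 807 for DP in WT, 5720 between genotypes in ethanol, 6052 under DP and 89 for the difference, with 1, 2, 2, 3 and 0 of the 9 genes, and no call of the 9 changed. Of the further clock genes Wee1, chosen after its values were seen, lost its call in WT (limma adjusted p = 0.0709, against 0.0366 without the block). That call also ended after cyclic loess, with an intensity trend, the mean of probe sets, the fold minimum or only the arrays compared, and without any 1 of the 6 WT arrays.

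Genes called for DP in dKO, 256 in the report, numbered 1477 with array weights, 59 with the fold minimum of 1.5, 142 with only the arrays compared and 153 to 292 with 1 array left out (153 without the DP array of dKO line 1 and 160 without that of line 6). For DP in WT, 808 became 1295 with array weights, 164 with the fold minimum and 538 to 680 with 1 array left out (538 without the DP array of line 4). Between genotypes in ethanol, 5740 became 1477 with the fold minimum. Under DP, 6057 became 1523 with the fold minimum. Over every probe set, 9227 of 28898 probe sets were called under DP, a count that cannot be set against 6057 of 17097 genes. For the difference, 96 became 267 with array weights and 15 with the fold minimum.

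Of the 9 genes, 1 was called for DP in dKO, and 3 with array weights, 2 after cyclic loess, 3 without the 2 ethanol arrays that stood apart and 1 to 3 with 1 array left out (3 without the ethanol array of line 1). For DP in WT 2 were called, and 4 with array weights, 1 with the fold minimum, 1 with median centring, 4 without the 2 arrays and 1 to 2 with 1 array left out (2 only without the ethanol array of line 5). Between genotypes in ethanol 2 were called, and 4 with array weights and 1 with the fold minimum. Under DP 3 were called, and 1 with the fold minimum and 5 with only the arrays compared. For the difference 0 were called, and 1 with array weights, 1 without the 2 arrays and 0 to 1 with 1 array left out (1 only without the ethanol array of dKO line 1).

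Apart from Csnk1d, the values that took the opposite sign passed neither before nor after. After cyclic loess Per1 differed between genotypes by -0.0807 in ethanol and -0.0717 under DP, and the differences of DP effects were 0.009 for Per1 and 0.0255 for Cry1. With median centring the differences of DP effects were 0.0606 for Per1 and 0.0638 for Cry1. With array weights the DP effect of Per2 in dKO was -0.129 and the difference for Dbp was 0.0528. Over the mean of probe sets the DP effect in dKO was 5e-04 for Bhlhe41 and -0.0363 for Per2, and the call of Csnk1d in dKO against WT in ethanol, 0.57 (adjusted p = 0.000928) on its brightest probe set, ended at -0.136 (adjusted p = 0.354). Without the 2 ethanol arrays the DP effect in dKO was -0.0791 for Per2 and -0.0227 for Per3, that of Nr1d2 in WT was -0.0591, and the difference for Cry1 was 0.059. With 1 array left out, the DP effect in dKO ranged between -0.113 and 0.014 for Bhlhe41, -0.126 and 0.0816 for Dbp, -0.0791 and 0.151 for Per2 and -0.243 and 0.36 for Per3. In WT it ranged between -0.172 and 0.0274 for Cry1, -0.075 and 0.281 for Dbp and -0.0591 and 0.353 for Nr1d2. Between genotypes the range was -0.0332 to 0.269 for Per1 in ethanol and -0.0527 to 0.517 for Per3 under DP. The difference of DP effects ranged between -0.133 and 0.0724 for Cry1, -0.27 and 0.086 for Dbp, -0.0842 and 0.23 for Nfil3, -0.118 and 0.524 for Nr1d2, -0.163 and 0.14 for Per1 and -0.602 and 0.0017 for Per3.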

Other observations

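On the linear scale the signal that DP added to Per1 was 69.5 ± 31.0 units in dKO lines and 66.2 ± 13.6 units in WT lines (SD, n = 3 each). For Nfil3 it was 73.0 ± 35.2 units in dKO and 122 ± 56.8 units in WT, where the lines overlapped (34.3 to 103 in dKO and 64.5 to 178 in WT). No test was made of these values.

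Wee1, the gene of a cell cycle kinase that is also a clock target, was at 7.05 to 7.17 in dKO DP, against 7.41 to 7.62 in dKO ethanol, and at 7.11 to 7.21 in WT DP, against 7.49 to 7.62 in WT ethanol. Tipin, which encodes the partner of TIMELESS, was at 9.31 to 9.50 in dKO DP, against 8.71 to 9.26 in dKO ethanol, and at 9.65 to 9.70 in WT DP, against 9.12 to 9.31 in WT ethanol. Wee1 changed with DP by -0.36 ± 0.09 in dKO, which did not pass (limma adjusted p = 0.0781). In WT its change was -0.37 ± 0.09 (adjusted p = 0.0366), a call that ended under many alternatives, as given above. Tipin passed in neither genotype, at 0.42 ± 0.12 in dKO and 0.45 ± 0.12 in WT (adjusted p = 0.151 and 0.0635). Both genes were chosen after their values were seen.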
